A study of Mus musculus with 6 samples.

Results

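Nuclear receptors are transcription factors that bind DNA through a zinc finger domain, and many of them are switched on by a small lipid-soluble ligand such as retinoic acid, vitamin D, a fatty acid or a steroid hormone. Retinoic acid, vitamin D, thyroid hormone and fatty acid receptors bind DNA as pairs with a retinoid X receptor (RXR), steroid receptors bind as pairs of themselves, and several orphan receptors bind alone. In skin, RXRα, RARγ, the vitamin D receptor and PPARδ are known as regulators of the epidermis. Genes were taken by symbol: every probe set paired with 1 symbol of the systematic form for the superfamily, from Nr0 to Nr6 followed by a letter and a digit, or with 1 of 20 common names such as Rara, Vdr or Thra. This gave 19 genes of the 10261 measured, each read by 1 probe set, and included 9 of the 20 common names. Of the 43 names that match in the mouse gene table or were listed, 24 were not measured here, among them Rarb, Rxrg, Ppara, Pparg, Thrb, Rorb, Nr1h2, Nr1h3, Nr2f1, Nr3c2, Nr4a3, Esr1, Esr2 and Pgr.

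RNA came from primary keratinocytes of newborn mice (postnatal day 0, back skin) and from mouse embryonic fibroblasts (MEFs) of E13.5 embryos, both grown in culture and left untreated. Each label covers 3 Affymetrix MoGene-1_0-st arrays, numbered as biological replicates, and no strain or genotype is stated for the keratinocytes. Nothing says whether the replicates came from separate litters, so p-values measure only the spread between these arrays. For the MEFs the methods name C57BL/6J, whereas the isolation protocol pools embryos and names DR-4 as the strain wanted. The keratinocytes were grown in a keratinocyte medium and the MEFs in DMEM with serum, so that age, medium and cell type cannot be told apart.

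The labels were checked first, and the data went against them. Cdh1, which encodes the epithelial junction protein E-cadherin, was at 3.33, 2.16 and 3.26 (log2) on the keratinocyte-labelled arrays, against 8.62, 8.59 and 8.73 on the MEF-labelled arrays (difference -5.73, adjusted p = 4.03e-07 from limma). The mesenchymal filament gene Vim gave 11.93, 11.97 and 12.03 on the keratinocyte-labelled arrays, against 3.81, 3.92 and 3.78 on the MEF-labelled arrays (difference 8.14, adjusted p = 7.89e-10). Of 7 keratinocyte markers, 7 were lower on the keratinocyte-labelled arrays, where they averaged 3.06 to 3.41 on the log2 scale per array, against 10.30 to 10.34 on the MEF-labelled arrays. Of 7 fibroblast markers, 7 were higher there, with averages of 10.88 to 10.96 on the keratinocyte-labelled arrays against 4.47 to 4.71 on the MEF-labelled arrays. By these markers, the MEF-labelled arrays carried the keratinocyte profile and the keratinocyte-labelled arrays the fibroblast profile. Whether the labels were exchanged between the groups was not tested. Every direction below is therefore that of the arrays as labelled, not of the cell type that the label names. Of the other cell types checked, the macrophage gene Cd68 was at least 7.28-fold lower on the keratinocyte-labelled arrays, and the endothelial gene Kdr was lower with no array above background (difference -1.47). The muscle genes Acta1 (at least 1.57-fold, difference 1.63) and Des (difference 3.87, no bound) were higher there, and the neural gene Tubb3 did not pass. Only 1 of 5 macrophage, 1 of 5 endothelial, 2 of 4 muscle, 1 of 4 neural and none of the adipocyte or melanocyte markers were measured. The part of other cells in the results was not tested, and in cultures measured as a whole, fewer cells of a type and less RNA per cell cannot be told apart.

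Array medians lay between 6.16 and 6.22 under the keratinocyte label and between 6.25 and 6.31 under the MEF label. Arrays correlated across probe sets at 0.976 to 0.982 within the keratinocyte label, at 0.986 to 0.990 within the MEF label and at 0.721 to 0.740 between them. Signals are log2 values, so that a difference of 1 is a 2-fold change, and each difference is the keratinocyte-labelled arrays minus the MEF-labelled arrays, given with a limma p adjusted over all named probe sets. As background, the 95th percentile over 10 probe sets of olfactory receptors was taken on each array. It lay between 5.49 and 5.92 on the keratinocyte-labelled arrays and between 6.05 and 6.58 on the MEF-labelled arrays. That level is rough: without its brightest probe set, Olfr1174, it was 5.44 to 5.51 on the keratinocyte-labelled arrays and 5.25 to 5.57 on the MEF-labelled arrays. Where a gene was not above background on any array of a group, a fold against that group is a lower bound. Levels of different genes cannot be set against each other, since each probe set has its own sensitivity.

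Nuclear receptor genes moved in both directions. Of the 19, 9 were higher on the keratinocyte-labelled arrays, 7 were lower and 3 did not pass, so that 84.2% were called at an adjusted p under 0.05, against 74.5% of all genes. Split by direction, 32.9% of all genes were higher and 41.7% lower. The groups did not overlap for 17 of the 19, against 78.4% of all genes. A called difference of at least 1 was found for 8 of them, against 28.4% of all genes. The median size of the difference was 0.83 for the receptors and 0.57 for all genes. The widest among the receptors was that of Vdr, at -2.85, while differences over all genes reached a size of 9.98. For each gene whose groups did not overlap, the exact two-sided permutation test gave p = 0.1, the smallest that 3 arrays against 3 allow. On the background level given above, 15 of the 19 were above background on at least 1 array (73.2% of all genes) and 7 on all 6 arrays (38.2% of all genes).

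**Figure D1:**
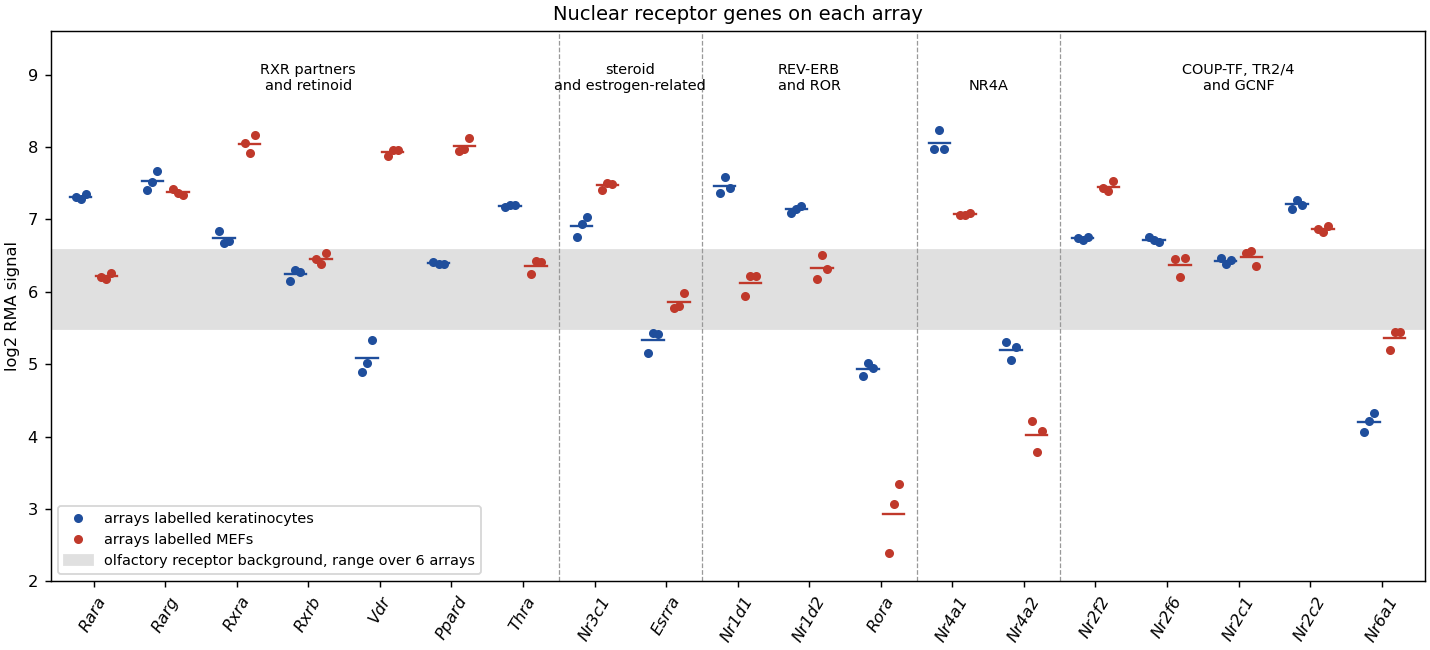
Log2 RMA signal (vertical axis) of the 19 nuclear receptor genes, grouped by family, on 3 keratinocyte-labelled (blue) and 3 MEF-labelled (red) arrays. Points are arrays, short lines group means and the grey band spans the lowest to the highest background level of an array (5.49 to 6.58); Vdr, Ppard and Rxra stand clearly lower in blue, Rara, Thra, Nr1d1 and Nr1d2 higher in blue, and Rora, Nr4a2 and Nr6a1 lie under the band on all arrays.

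Among the receptors that pair with RXR, the vitamin D receptor and PPARδ were lower on the keratinocyte-labelled arrays together with RXRα itself, whereas retinoic acid receptor α and thyroid hormone receptor α were higher. Vdr, which encodes the receptor of the active form of vitamin D, gave 4.89, 5.01 and 5.34 on the keratinocyte-labelled arrays, against 7.88, 7.96 and 7.96 on the MEF-labelled arrays. It was above background on the MEF-labelled arrays alone. This made it at least 4.71-fold lower on the keratinocyte-labelled arrays (difference -2.85, 95% confidence interval -3.14 to -2.56, adjusted p = 2.14e-07). Ppard, which encodes the fatty acid receptor PPARδ, gave 6.41, 6.39 and 6.39 on the keratinocyte-labelled arrays, against 7.95, 7.97 and 8.12 on the MEF-labelled arrays. Its values on the keratinocyte-labelled arrays differed by no more than a few hundredths, and it was 3.07-fold lower on them (difference -1.62, interval -1.82 to -1.41, adjusted p = 8.23e-07). Rxra, which encodes the shared partner RXRα, gave 6.84, 6.67 and 6.70 on the keratinocyte-labelled arrays, against 8.05, 7.92 and 8.17 on the MEF-labelled arrays. It was 2.48-fold lower on the keratinocyte-labelled arrays (difference -1.31, interval -1.54 to -1.07, adjusted p = 7.17e-06). The other measured partner, Rxrb, gave 6.15, 6.30 and 6.28 on the keratinocyte-labelled arrays, against 6.45, 6.39 and 6.53 on the MEF-labelled arrays. Rxrb was above background on 1 of the MEF-labelled arrays, and on all 3 without Olfr1174 in the background. Its groups did not overlap, yet the difference of -0.21 did not pass (interval -0.42 to 0.00, adjusted p = 0.0638), and its adjusted p lay between 0.0397 and 0.281 over the alternatives.

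Rara, which encodes retinoic acid receptor α, gave 7.31, 7.28 and 7.35 on the keratinocyte-labelled arrays, against 6.20, 6.18 and 6.26 on the MEF-labelled arrays, where 1 array was above background. It was 2.15-fold higher on the keratinocyte-labelled arrays (difference 1.10, interval 0.91 to 1.29, adjusted p = 5.81e-06). Rarg, which encodes RARγ, gave 7.41, 7.52 and 7.67 on the keratinocyte-labelled arrays, against 7.42, 7.36 and 7.34 on the MEF-labelled arrays. These groups overlapped, and the difference of 0.16 did not pass (interval -0.06 to 0.39, adjusted p = 0.166). After centring each array on its median it came to 0.26 and passed (adjusted p = 0.0396, with 0.0367 to 0.422 over the alternatives). Thra, the gene of thyroid hormone receptor α, gave 7.17, 7.20 and 7.20 on the keratinocyte-labelled arrays, against 6.25, 6.42 and 6.41 on the MEF-labelled arrays, where again 1 array was above background. It was 1.77-fold higher on the keratinocyte-labelled arrays (difference 0.83, interval 0.62 to 1.03, adjusted p = 5.72e-05). The gene of its counterpart, Thrb, was not measured here, and neither was Rarb. Without Olfr1174 in the background, Rara and Thra were above it on all 3 MEF-labelled arrays.

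**Figure D2:**
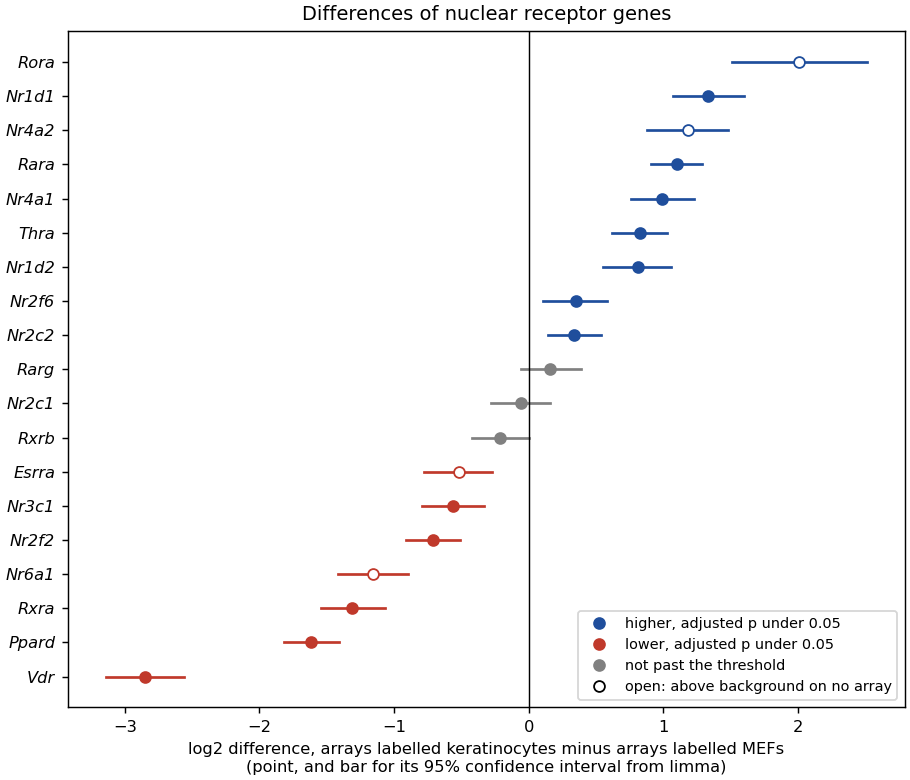
Log2 difference, keratinocyte-labelled minus MEF-labelled arrays (horizontal axis), of each of the 19 genes, with bars for the 95% confidence interval from limma, blue for higher, red for lower, grey for not past the threshold and open points for genes above background on no array. The genes run from Rora (2.01) at the top to Vdr (-2.85) at the bottom, and 3 intervals, those of Rarg, Nr2c1 and Rxrb, reach 0.

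Both REV-ERB genes and Rora were higher on the keratinocyte-labelled arrays. REV-ERBα and REV-ERBβ are repressors of the circadian clock, and RORα is an activator that binds the same DNA elements. Nr1d1, which encodes REV-ERBα, gave 7.36, 7.58 and 7.44 on the keratinocyte-labelled arrays, against 5.94, 6.22 and 6.22 on the MEF-labelled arrays. It was 2.52-fold higher on the keratinocyte-labelled arrays (difference 1.33, interval 1.07 to 1.60, adjusted p = 1.30e-05). Nr1d1 overlaps Thra on chromosome 11, and whether their probe sets read the shared stretch was not stated. Nr1d2, the gene of REV-ERBβ, gave 7.09, 7.14 and 7.19 on the keratinocyte-labelled arrays, against 6.17, 6.51 and 6.32 on the MEF-labelled arrays. Its fold was 1.75 in the same direction (difference 0.81, interval 0.55 to 1.06, adjusted p = 2.14e-04). Both genes were above background on 1 of the 3 MEF-labelled arrays, and on all 3 without Olfr1174 in the background. Rora gave 4.84, 5.02 and 4.95 on the keratinocyte-labelled arrays, against 2.39, 3.07 and 3.34 on the MEF-labelled arrays. It passed (difference 2.01, adjusted p = 5.72e-05) but was above background on no array, so no fold is given, and its SD of 0.49 on the MEF-labelled arrays was the widest of the 19 genes.

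Clock genes did not move as one. Of 12 measured, 4 were higher on the keratinocyte-labelled arrays, 5 were lower and 3 did not pass. Over all genes, 32.9% were higher and 41.7% lower, close to the shares in this list. The median difference of the clock genes was -0.03, against -0.12 for all genes. Arntl, which encodes the clock activator BMAL1, was lower (difference -0.39, adjusted p = 0.0226 from limma). It gave 6.30 ± 0.23 on the keratinocyte-labelled and 6.70 ± 0.08 on the MEF-labelled arrays (SD, n = 3 each). Per1, a repressor of the clock that also responds to glucocorticoids, was 4.04-fold lower, with 5.54, 5.66 and 5.88 on the keratinocyte-labelled arrays, against 7.65, 7.73 and 7.74 on the MEF-labelled arrays. It was above background on 1 of the keratinocyte-labelled arrays. Nfil3, a repressor that opposes the activator DBP, was at least 1.72-fold higher on the keratinocyte-labelled arrays (difference 1.13). Dbp itself was higher as well (difference 1.05), though no bound could be set. Hlf, a relative of Dbp, was lower (difference -1.56), while Per3 (0.44) and Ciart (0.63) were higher; these 3 genes were above background on no array. With either filter on dim probe sets 2 clock genes were higher. The lower ones numbered 3 under either scaling, and 2 with the filter on background or by the methods' t-test.

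The NR4A genes, immediate early genes whose receptors act without a known physiological ligand, were both higher on the keratinocyte-labelled arrays. Nr4a1, which encodes NUR77, gave 7.97, 8.24 and 7.97 on the keratinocyte-labelled arrays, against 7.06, 7.06 and 7.09 on the MEF-labelled arrays. All 6 arrays were above background, and the fold was 1.99 (difference 0.99, interval 0.76 to 1.23, adjusted p = 4.35e-05). Nr4a2, which encodes NURR1, gave 5.30, 5.06 and 5.24 on the keratinocyte-labelled arrays, against 4.22, 3.79 and 4.07 on the MEF-labelled arrays. Its groups did not overlap (difference 1.18, adjusted p = 6.33e-05), but no array was above background and no fold is given. Transcription of both genes is known to be induced through cAMP response elements, whose core is TGACG. The stretches before their start sites, from RefSeq promoters of GRCm38.p6, are shown because both genes hold this core 4 times in the 250 bases before the start, and 4 or more copies occur in 0.137% of the 32851 mouse promoters of this length. The core occurs at least once, on either strand, in 17.77% of them.
Nr4a1, chr15:101266596-101266845, + strand, 250 bases up to the start site, with TGACGCA on the opposite strand (read here as TGCGTCA) in capitals: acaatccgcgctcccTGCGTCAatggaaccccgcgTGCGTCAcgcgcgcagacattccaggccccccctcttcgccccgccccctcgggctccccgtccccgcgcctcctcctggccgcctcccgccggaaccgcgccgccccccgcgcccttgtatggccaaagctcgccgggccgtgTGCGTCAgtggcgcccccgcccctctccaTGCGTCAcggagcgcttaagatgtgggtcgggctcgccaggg
Nr4a2, chr2:57124094-57124213, - strand, 120 bases, with TGACG or its reverse complement CGTCA in capitals: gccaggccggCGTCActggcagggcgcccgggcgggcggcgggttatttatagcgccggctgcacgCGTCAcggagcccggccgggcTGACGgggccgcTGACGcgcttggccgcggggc
In Nr4a1 each core was part of the longer TGACGCA, which occurs in 1.75% of promoters, and in Nr4a2 none was. The full palindrome TGACGTCA, which holds the core on both strands and occurs in 1.55% of promoters, was in neither window. Of the 17 receptor genes found in the promoter table, 7 held the core (Nr2c1, Nr2c2, Nr4a1, Nr4a2, Nr6a1, Rara and Rxrb), against 19.8% of all genes in it. These motifs were chosen after the values were seen, and a match is a description of the letters only.

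AGGTCA, a half-site that many but not all nuclear receptors bind, was searched on both strands in the same windows. It occurred in 14.02% of all promoters and 15.8% of all genes in the table, and in 4 of the 17 receptor genes, namely Nr1d2 and Rarg, of which Nr1d2 was higher on the keratinocyte-labelled arrays, and Rxra and Nr6a1, which were lower. The windows of Rxra and Nr1d2 are shown as examples from both directions, with AGGTCA or its reverse complement TGACCT in capitals.
Rxra, at a downstream start site, chr2:27709182-27709281, + strand: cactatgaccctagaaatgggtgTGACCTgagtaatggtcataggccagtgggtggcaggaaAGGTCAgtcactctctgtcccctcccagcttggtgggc
Nr1d2, chr14:18239117-18239216, - strand: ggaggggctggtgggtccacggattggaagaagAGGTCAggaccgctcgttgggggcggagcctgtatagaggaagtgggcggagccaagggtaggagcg
The E-box CACGTG, the site of BMAL1 and CLOCK, occurred in 6.02% of promoters and 6.9% of genes, and among the receptors in Rara alone. Nr1d1 held none of these motifs in its window.

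The glucocorticoid receptor gene and the estrogen-related receptor gene were both moderately lower on the keratinocyte-labelled arrays. Nr3c1, which encodes the glucocorticoid receptor, gave 6.76, 6.94 and 7.03 on the keratinocyte-labelled arrays, against 7.41, 7.51 and 7.49 on the MEF-labelled arrays. It was above background throughout and 1.47-fold lower on the keratinocyte-labelled arrays (difference -0.56, interval -0.79 to -0.33, adjusted p = 1.14e-03). Esrra, which encodes the orphan receptor ERRα, a regulator of mitochondrial metabolism, gave 5.16, 5.43 and 5.41 on the keratinocyte-labelled arrays, against 5.77, 5.81 and 5.98 on the MEF-labelled arrays. Although the groups did not overlap (difference -0.52, adjusted p = 2.88e-03), no array was above background. Without Olfr1174 in the background, Esrra was above it on the 3 MEF-labelled arrays.

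Genes that the glucocorticoid receptor is known to induce were looked at next. Of 9 measured, 5 were lower on the keratinocyte-labelled arrays, 1 was higher and 3 did not pass, beside 41.7% lower and 32.9% higher of all genes. Their median difference was -0.78 against -0.12 for all genes. Fkbp5, which encodes a co-chaperone that holds the receptor back, gave 6.71, 6.52 and 6.62 on the keratinocyte-labelled arrays, against 9.03, 9.20 and 9.12 on the MEF-labelled arrays. It was 5.65-fold lower on the keratinocyte-labelled arrays (difference -2.50, adjusted p = 9.06e-08). Zbtb16, a zinc finger repressor gene, was at least 2.27-fold lower (difference -3.12), Tsc22d3, which encodes the anti-inflammatory protein GILZ, was at least 1.89-fold lower (difference -1.99), and Per1 is given above. The exception was Errfi1, an inhibitor of the EGF receptor, which was 1.52-fold higher (8.74 ± 0.03 on the keratinocyte-labelled and 8.14 ± 0.03 on the MEF-labelled arrays, difference 0.60, adjusted p = 2.34e-04). With replicate 1 labelled keratinocytes left out 2 were higher, as with either scaling, either filter on dim probe sets, array weights or the methods' t-test. Among 6 measured chaperones of steroid receptors, 4 were lower on the keratinocyte-labelled arrays, none was higher and 2 did not pass, with a median of -0.58, beside 41.7% of all genes lower. Hsp90aa1 was 1.71-fold, Fkbp4 1.55-fold and Stip1 1.43-fold lower, besides Fkbp5, which is in both lists. The 3 probe sets of Hsp90aa1 passed in the same direction.

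The remaining orphan receptors split again. Nr2f2, which encodes COUP-TFII, a factor known from mesenchyme and veins, gave 6.74, 6.71 and 6.76 on the keratinocyte-labelled arrays, against 7.43, 7.39 and 7.53 on the MEF-labelled arrays. It was 1.64-fold lower on the keratinocyte-labelled arrays, the arrays with high Vim (difference -0.71, interval -0.91 to -0.51, adjusted p = 1.12e-04). Nr2f6, which encodes a relative of the COUP-TFs, gave 6.76, 6.71 and 6.69 on the keratinocyte-labelled arrays, against 6.45, 6.21 and 6.47 on the MEF-labelled arrays. Nr2f6 was above background on 1 of the MEF-labelled arrays, and on all 3 without Olfr1174 in the background. Its 1.27-fold higher level (difference 0.35, interval 0.11 to 0.58, adjusted p = 0.0140) did not pass without replicate 2 labelled MEFs (difference 0.26, adjusted p = 0.0587, with 0.00501 to 0.0587 over the alternatives). Nr2c2, the gene of testicular receptor TR4, gave 7.15, 7.27 and 7.20 on the keratinocyte-labelled arrays, against 6.87, 6.83 and 6.91 on the MEF-labelled arrays. This was a 1.27-fold higher level on the keratinocyte-labelled arrays (difference 0.34, interval 0.14 to 0.54, adjusted p = 6.85e-03). Its partner gene Nr2c1, which encodes TR2, gave 6.46, 6.38 and 6.44 on the keratinocyte-labelled arrays, against 6.53, 6.57 and 6.36 on the MEF-labelled arrays. Nr2c1 was above background on 1 of the MEF-labelled arrays, and on all 3 without Olfr1174 in the background. The groups overlapped and the difference of -0.06 did not pass (interval -0.28 to 0.16, adjusted p = 0.587). Nr6a1, which encodes the germ cell nuclear factor, known as a repressor of Pou5f1 in embryonic stem cells, gave 4.06, 4.22 and 4.32 on the keratinocyte-labelled arrays, against 5.20, 5.44 and 5.44 on the MEF-labelled arrays. It was lower (difference -1.16, adjusted p = 2.90e-05) with no array above background, and without Olfr1174 in the background 2 of the MEF-labelled arrays were above it.

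**Figure D3:**
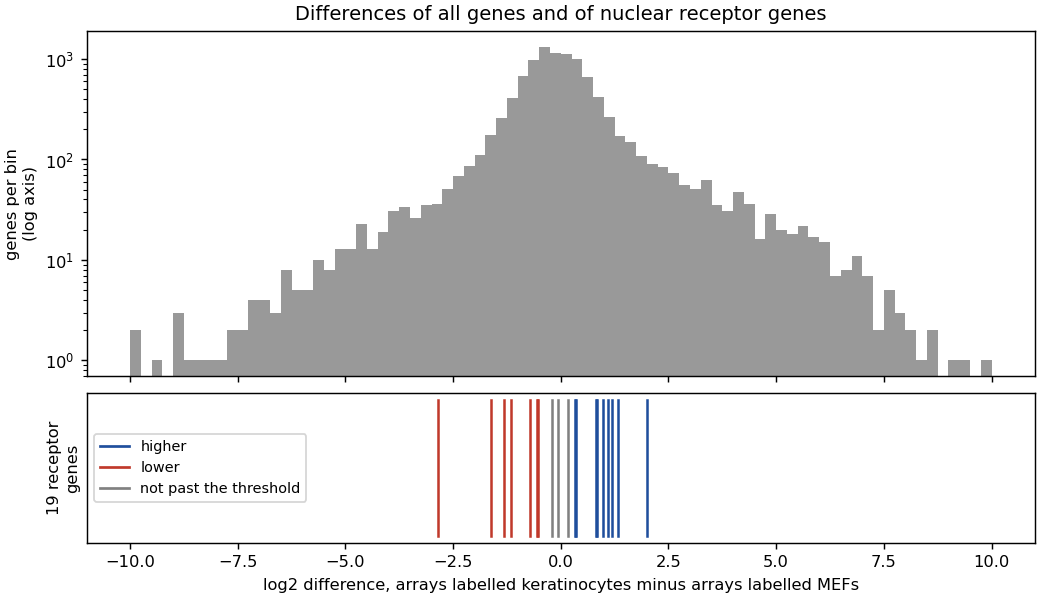
Number of genes per bin of 0.25 (upper panel, log axis) against the log2 difference, keratinocyte-labelled minus MEF-labelled arrays, for all 10261 genes, with a line for each of the 19 nuclear receptor genes in the lower panel (blue higher, red lower, grey not past the threshold). The receptors lie between -2.85 and 2.01, within a distribution that reaches a size of 9.98.

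Genes for enzymes and binding proteins that handle retinoid ligands held the widest differences among the lists. Of 9 measured, 6 were higher on the keratinocyte-labelled arrays, 1 was lower and 2 did not pass, beside 32.9% higher and 41.7% lower of all genes. Their median difference was 2.08, against -0.12 for all genes, and of the 6, Aldh1a2 and Aldh1a3, which encode retinaldehyde dehydrogenases, were above background on no array. The cytosolic retinoic acid carriers Crabp1 and Crabp2 were at least 15.1-fold and 2.90-fold higher (differences 5.43 and 3.02), and Dhrs3, which encodes a retinal reductase, was at least 3.78-fold higher (difference 2.75). Without Olfr1174 in the background these bounds were 30.4-fold for Crabp1, 5.84-fold for Crabp2 and 6.75-fold for Dhrs3. In the other direction, Dhrs9, a retinol dehydrogenase gene, was at least 4.81-fold lower, with 5.18, 4.77 and 5.19 on the keratinocyte-labelled arrays, against 7.93, 7.97 and 8.00 on the MEF-labelled arrays. For the ligands of the vitamin D, thyroid hormone and glucocorticoid receptors, only 1 of 12 genes was measured: H6pd, which supplies the cofactor for glucocorticoid activation, was at least 1.42-fold higher on the keratinocyte-labelled arrays (2.42-fold without Olfr1174, difference 1.28, adjusted p = 5.60e-06).

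Known target genes of PPARs and of the liver X receptors, whose own genes were not measured apart from Ppard, went both ways. Of 7 measured PPAR targets, 3 were higher on the keratinocyte-labelled arrays and 4 were lower, with a median difference of -0.52. Over all genes, 32.9% were higher and 41.7% lower, with a median difference of -0.12. Lpl, which encodes lipoprotein lipase, was at least 3.70-fold lower, with 4.45, 4.30 and 3.92 on the keratinocyte-labelled arrays, against 7.56, 7.49 and 7.72 on the MEF-labelled arrays. Fabp5, whose product carries fatty acids to PPARδ and is abundant in epidermis, was 1.67-fold lower, and its second probe set passed in the same direction. The genes of fatty acid oxidation split: Cpt1a was 1.69-fold and Acadm 1.63-fold higher, and Acaa2 was 1.44-fold lower. Angptl4, which encodes an inhibitor of lipoprotein lipase, was higher with no array above background (difference 1.14). Of 8 measured liver X receptor targets, 3 were higher, 3 were lower and 2 did not pass, with a median of 0.06. The shares and median of all genes given for the PPAR targets hold beside these as well. Mylip, which encodes a ligase that degrades the LDL receptor, gave 7.86, 7.74 and 7.97 on the keratinocyte-labelled arrays, against 3.25, 3.40 and 3.65 on the MEF-labelled arrays, and was at least 2.78-fold higher on the keratinocyte-labelled arrays (5.60-fold without Olfr1174). The cholesterol exporter gene Abca1 (difference 2.01, no array above background) and Apoe (0.84, no bound) were also higher, and the fatty acid synthase gene Fasn was 1.83-fold lower.

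Coregulators, which receptors recruit to switch transcription on or off, went both ways. Of 12 measured coactivators, 2 were higher on the keratinocyte-labelled arrays, 8 were lower and 2 did not pass, with a median difference of -0.28, beside 32.9% higher and 41.7% lower of all genes and their median of -0.12. After median centring 4 were higher and 5 lower, and 5 were lower with a replicate block or without replicate 2 labelled MEFs. The lower ones included Ncoa3, a p160 coactivator gene (2.06-fold), the arginine methyltransferase gene Carm1 (1.97-fold) and Ppargc1b, a coactivator of mitochondrial genes (difference -1.67, no array above background). Crebbp, which encodes the acetyltransferase CBP, was higher (8.51 ± 0.08 on the keratinocyte-labelled and 7.96 ± 0.05 on the MEF-labelled arrays, difference 0.55), and Ncoa7 was higher with no array above background (difference 0.69). Of 7 measured corepressors, 1 was higher, 4 were lower and 2 did not pass, with a median of -0.43. Nrip1, which encodes RIP140, was 1.75-fold and Lcor 1.70-fold lower, Hr, the hairless corepressor of the vitamin D and thyroid hormone receptors, was lower with no array above background (difference -1.24), and Tbl1xr1, part of the NCoR complex, was 1.41-fold higher with both of its probe sets passing.

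**Figure D4:**
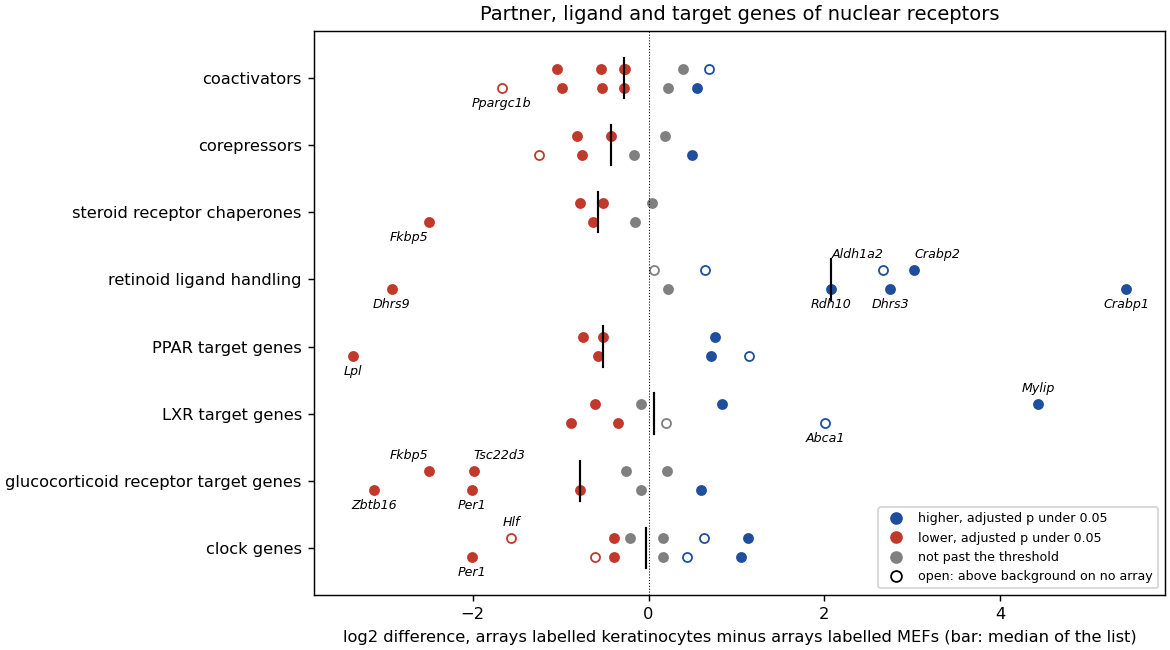
Log2 difference, keratinocyte-labelled minus MEF-labelled arrays (horizontal axis), of the measured genes of each list of coregulators, chaperones, ligand handling, targets and clock genes (rows), with blue for higher, red for lower, grey for not past the threshold, open points for genes above background on no array and black bars for list medians. Names are given from a size of 1.5; the retinoid list has the highest median (2.08) and the glucocorticoid targets the lowest (-0.78).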

How the data were processed

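The 6 Affymetrix MoGene-1_0-st arrays held RNA of primary keratinocytes or MEFs. The values deposited were log2 signals of 15648 probe sets in 1 table. RMA with oligo is the normalization in the methods, with version 1.46.0 in the submitters' processing notes; not given in the sources used here are the arrays normalized together and the choice of probe sets. RMA brings arrays to 1 distribution, which can hide a change of total RNA, and compresses dim signals. The number of arrays limits the precision.
Groups were taken from sample titles. The platform's probe table gave 11288 probe sets 1 symbol, 645 several and 3715 none. The brightest probe set stood for its gene. The test was limma 3.58.1 (lmFit, eBayes; R 4.3.3) on the 11288 probe sets with 1 symbol, without a block, with Benjamini-Hochberg adjustment and a threshold of 0.05. The fit was tested on simulated data. Members, gene lists, markers and tests were chosen with earlier results of these data known. Named were every member, Cdh1, Vim, up to 4 genes of each list with the largest differences and any called in the opposite direction to most of their list; others named were chosen after their values were seen. The lists cover coactivators, corepressors, chaperones, ligand handling, targets and clock genes, and Hnf4a was looked at as a receptor outside the rule. Promoters came from RefSeq (GRCm38.p6), figures from matplotlib 3.10.9.
Alternatives were median centring, quantile normalization, a replicate block, each array left out, array weights, eBayes with trend and robust settings, the methods' t-test, probe sets averaged per gene, a fit on the whole table, 2 filters against dim signals and a minimum log2 difference of 1. A second background level was added after seeing the data.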

Additional observations from a re-analysis of the deposited data

How the results depend on the processing

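Of the 19 receptor genes, 16 passed, and with arrays left out in turn 15 to 16 did: 8 to 9 higher and 7 to 7 lower on the keratinocyte-labelled arrays. Without replicate 2 labelled MEFs, Nr2f6 did not pass. A minimum log2 difference of 1 left 8 receptors, 4 higher and 4 lower, by its construction. Under the other alternatives 13 to 17 passed. Median centring moved the median of all genes by 0.10 and brought Nr2c1, which passed in no setting, to 0.04, as did quantile normalization; the cause was not tested. Rarg passed under both scalings, and Rxrb with either filter on dim probe sets or the methods' t-test. Filters left 13 to 14 receptors called because they removed dim genes. Cdh1 (-5.94 to -5.35) and Vim (8.11 to 8.18) kept their directions with each array left out. The replicate numbers did not pair the arrays: deviations of arrays with the same number correlated at -0.23, -0.21 and -0.03. With a replicate block 16 receptors passed, and 5 coactivators were lower where 8 were without it. Among the lists, median centring gave 4 coactivators and 2 corepressors higher, and 3 clock genes lower, and both filters left 2 clock genes higher; the background filter and the methods' t-test left 2 lower; the cause was not tested. Without Olfr1174, an alternative chosen after seeing the data, 17 receptors were above background on some array and 14 on all, and the bound for Vdr was 5.52-fold. The bounds for Crabp1 (30.4-fold), Crabp2 (5.84), Dhrs3 (6.75), Mylip (5.60), H6pd (2.42) and Acta1 (3.06) moved by more than that for Vdr. Signal over background limits Rora, Nr4a2, Nr6a1 and Esrra most.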

Other observations

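Nr1d1, Thra and Rara, all higher on the keratinocyte-labelled arrays, are neighbours on chromosome 11, where Nr1d1 and Thra overlap in the RefSeq gene table of GRCm38.p6. Whether their probe sets read the shared stretch was not stated in any source used. Of the 5 other measured protein-coding genes in that interval, 1 was higher, 3 were lower and 1 did not pass. Over all genes, 32.9% were higher and 41.7% lower. Msl1 was higher on the keratinocyte-labelled arrays (log2 difference 0.38), whereas Rapgefl1 (-2.73), Cdc6 (-0.89) and Wipf2 (-0.34) were lower, and Casc3 did not pass (-0.12, adjusted p = 0.391 from limma). By mean signal, Wipf2 (5.16 on the keratinocyte-labelled and 5.50 on the MEF-labelled arrays) lay under the background levels of both groups. Rapgefl1 lay under them on the keratinocyte-labelled arrays (3.36) and within their range on the MEF-labelled arrays (6.10). Cdc6 (5.87) lay within the range on the keratinocyte-labelled arrays. The neighbours were chosen after the values of the receptors were seen.
Hnf4a, a nuclear receptor gene whose symbol falls outside the rule, gave 4.31, 4.39 and 4.20 on the keratinocyte-labelled arrays, against 3.99, 4.01 and 4.19 on the MEF-labelled arrays, above background on no array. The difference of 0.24 did not pass (adjusted p = 0.0595 from limma), but passed without replicate 3 of either label and after median centring.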
